A study of Mus musculus with 8 samples.

Results

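Imprinted genes are read from only 1 parental copy, and the 32 examined here include H19, Igf2 and the genes of the Dlk1-Dio3, Peg3, Prader-Willi and Kcnq1 domains. They were picked by name as known imprinted genes, with the differences between the tumour groups of this series in view, so those differences are a description here and support no test. Of the 32 names, 30 were matched to the 38355 genes of the deposited tables, and Kcnq1ot1 and Snrpn were not. Of the 30, 25 passed the filter on low counts and could be tested, and Rtl1, Dio3, Usp29, Magel2 and Zdbf2 did not pass it.

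The tumours were colon tumours of azoxymethane-treated mice, and azoxymethane is a colon carcinogen that both groups received. A group of 4 mice carried Trp53ΔIEC, in the field's notation a loss of Trp53 in intestinal epithelial cells. The other 4 mice, Trp53ΔIECAktE17K, carried the same loss together with AktE17K, an activating substitution of the kinase AKT. One whole tumour was taken per mouse, so the 8 libraries come from 8 mice. The sources used here do not give the strain, age or sex of the mice, or the driver of the deletion and of AktE17K. Polyadenylated RNA of the whole tumour was sequenced, so stromal, muscle and nerve cells are measured together with the epithelium, and fewer cells of a type cannot be told apart from less RNA per cell.

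Between 18572180 and 26268547 reads per tumour were assigned to genes, and libraries correlated at 0.896 to 0.966 within groups and 0.873 to 0.937 between them. Trp53 was at 20.8 to 37.1 CPM and Akt1 at 338.2 to 430.2 CPM over the 8 tumours, which does not separate the groups. CPM is counts per 1000000 reads of the library size after TMM scaling. The 10 colon epithelium markers, such as Epcam and Krt8, summed to 4347 CPM or more in every tumour, so the defining markers of the labelled tissue were present. Fold changes are Trp53ΔIECAktE17K over Trp53ΔIEC, and a gene is called, and said to have risen or fallen, when its adjusted p over all 16539 tested genes was under 0.05 in edgeR's quasi-likelihood test.

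Genomic imprinting is set by DNA methylation laid down in the egg or the sperm at imprinting control regions. At the H19 and Igf2 locus the factor CTCF binds the unmethylated maternal control region, so that shared enhancers act on H19 from the maternal copy and on Igf2 from the paternal copy. Many of these genes, among them H19, Igf2, Dlk1, Meg3 and Peg3, are abundant in the embryo and placenta and are turned down in most tissues after birth, and many act on growth. Their transcripts also carry small RNAs, and H19 is the precursor of miR-675.

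The sequences below are mature miRNAs of H19 and Igf2 and examples from the Dlk1-Dio3 domain, where 2 noncoding RNAs were called. They are shown because reads of a host transcript such as H19 or Meg3 come from the same unit as the miRNA, although mature miRNAs were not measured by these libraries. Sequences are those of RefSeq on GRCm38.p6, written 5′ to 3′, with the seed (bases 2 to 8) in capitals.
miR-675-5p (in H19, 7:142577112-142577133, minus strand): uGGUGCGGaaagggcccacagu
miR-675-3p (in H19): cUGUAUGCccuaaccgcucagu
miR-483-5p (in Igf2, 7:142654968-142654989, minus strand): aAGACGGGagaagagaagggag
miR-483-3p (in Igf2): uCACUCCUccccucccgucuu
miR-770-5p (in Meg3): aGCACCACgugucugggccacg
miR-370-3p (in Rian): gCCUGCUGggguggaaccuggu
miR-127-3p (opposite Rtl1, 12:109592888-109592909, plus strand): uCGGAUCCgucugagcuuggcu
miR-433-3p (opposite Rtl1): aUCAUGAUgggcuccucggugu
miR-134-5p (in Mirg): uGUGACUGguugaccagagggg
miR-410-3p (in Mirg): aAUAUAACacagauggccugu

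In all, 56 mature miRNAs of the RefSeq table lay inside a matched member, 26 of them in Mirg, 13 over Rtl1 (11 on the opposite strand), 6 in Rian and 3 in Meg3. H19, Igf2, Mest and Usp29 held 2 each. Only 1 seed was shared by 2 of the 56 (GGUUGCC, in miR-453 and miR-496a-5p, both in Mirg), so the 10 sequences above have 10 different seeds. The gene Mir675, whose hairpin overlaps 84 exonic bases of H19 on the same strand, held 0 reads in every tumour. Reads there also lie over H19 and could be set aside as ambiguous, so this 0 is no measure of miR-675.

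Promoter windows of 2 called members, Meg3 and Peg3, are shown, the first for its motif close to the start and the second for a motif that the protein of the member Plagl1 is known to bind. Nap1l5 also has a TATAAA match, 214 bases before its start, and neither Rian, Ndn nor a second Meg3 window has a match. Each window runs from 250 bases before the RefSeq start to 50 after it. In the Meg3 window (12:109540746-109541045, plus strand) the capitals mark a run in which TATAAA, the core of a TATA box, is found on each strand, beginning 29 and 25 bases before the start, so that the matches overlap.
Meg3: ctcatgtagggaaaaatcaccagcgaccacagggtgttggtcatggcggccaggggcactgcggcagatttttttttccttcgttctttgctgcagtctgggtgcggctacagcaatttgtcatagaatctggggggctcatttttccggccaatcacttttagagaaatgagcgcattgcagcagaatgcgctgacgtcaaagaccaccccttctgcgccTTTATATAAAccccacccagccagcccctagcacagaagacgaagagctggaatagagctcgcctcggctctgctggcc
In the Peg3 window (7:6730370-6730669, minus strand) the capitals mark GGGGCCCC, the Plagl1 motif, which reads the same on both strands.
Peg3: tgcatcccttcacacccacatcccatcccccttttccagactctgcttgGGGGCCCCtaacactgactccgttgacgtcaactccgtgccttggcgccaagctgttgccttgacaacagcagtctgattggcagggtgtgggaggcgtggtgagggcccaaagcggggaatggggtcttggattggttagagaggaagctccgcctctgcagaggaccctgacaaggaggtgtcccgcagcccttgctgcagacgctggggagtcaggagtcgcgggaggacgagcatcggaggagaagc

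Searched on both strands, GGGGCCCC was found in 3 of the 36 member windows, those of Peg3, Usp29 and Rasgrf1, and in 354 of all 32851 windows (1.08%). The Peg3 and Usp29 windows overlap, and their match is the same site (7:6730613-6730620). TATAAA was found in 9 of the 36 member windows, among them Meg3, Dio3, Gnas, Phlda2 and Nap1l5, and in 4473 of all windows (13.6%). Windows were found for 23 of the members, and a match is a description of the letters, not a measured binding site.

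Of the 25 tested members, 5 rose in Trp53ΔIECAktE17K tumours (Meg3, Rian, Peg3, Ndn and Nap1l5) and 0 fell. Over all tested genes 4.20% were called, 3.44% higher and 0.756% lower. At an unadjusted p under 0.05 edgeR's test had 13 members higher and 1 lower, against 2112 and 1334 of the 16539 tested genes. DESeq2 called 11 of the 25 higher and 0 lower, namely the 5 above and H19, Igf2, Mirg, Mest, Grb10 and Peg10. Among the same 16539 genes DESeq2 called 1404 higher and 723 lower. Limma-voom called 3 members higher (Meg3, Rian and Nap1l5) and 0 lower, against 432 and 115 of all tested genes. Where a member is described below as not called, edgeR's test is meant. The fitted difference was above 0 in 22 members and below 0 in 3, with a median log2 fold change of 1.46 against 0.01 over all tested genes. It exceeded 2-fold upward in 14 members and downward in 1, and lay within 0.25 of 0 on the log2 scale in 6. The groups did not overlap in 8 tested members, each higher with AktE17K, and over all tested genes 8.34% had that pattern, 5.88% the opposite one and 14.2% either. Of the called or non-overlapping members, Ndn, Nap1l5, Mirg and Peg10 passed the filter on low counts only through the Trp53ΔIECAktE17K tumours. Because the members were chosen with this contrast in view, nothing is read from these shares.

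**Figure D1:**
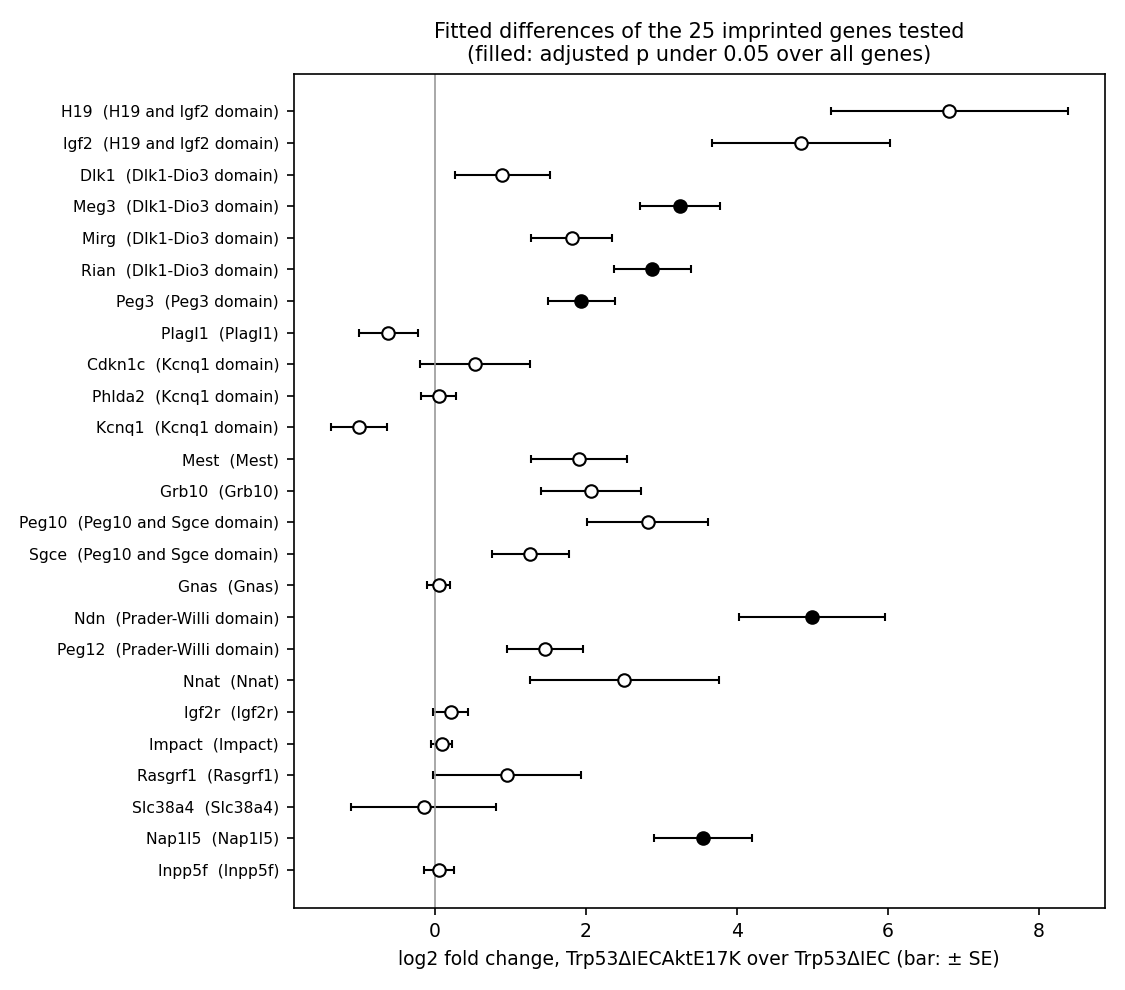
Log2 fold change ± SE of each tested imprinted gene (Trp53ΔIECAktE17K over Trp53ΔIEC, 4 tumours each), grouped by domain, with filled points for called genes. H19 has the highest value and the widest error (6.81 ± 1.57) and is an open point, whereas Gnas, Impact, Inpp5f and Phlda2 lie near 0 with short bars.

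H19, a maternally expressed long noncoding RNA (ENSMUSG00000000031, 7:142575529-142578143, minus strand), was at 30.9, 27.7, 16.5 and 2.19 CPM in Trp53ΔIEC replicates 1 to 4. In Trp53ΔIECAktE17K replicates 1 to 4 it was at 589.5, 2821, 5265 and 26.9 CPM. Replicates 1 to 3 with AktE17K thus lay above every Trp53ΔIEC tumour, but replicate 4 lay within their range, so the groups overlap. Per kilobase of exon, H19 held ranks 127, 8, 1 and 5620 among all genes of Trp53ΔIECAktE17K replicates 1 to 4, and its reads were 0.0595%, 0.29%, 0.543% and 0.00256% of all assigned reads. The level in replicate 3 was 195.9 times that in replicate 4 of the same genotype. The group means were 19.3 ± 13 and 2176 ± 2387 CPM (SD, n = 4 each), and the log2 fold change of 6.81 ± 1.57 (SE) was not called. Left out in turn, the 8 tumours gave log2 fold changes of 5.90 to 7.19. Among these removals H19 was called in 1, that of Trp53ΔIECAktE17K replicate 4 (7.19). On all 8 tumours DESeq2 called H19 higher and limma-voom did not.

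Igf2, the paternally expressed growth factor that signals through the IGF1 and insulin receptors (ENSMUSG00000048583, 7:142650766-142666816, minus strand), was at 10.9, 8.12, 9.22 and 3.35 CPM in Trp53ΔIEC tumours. It was at 50, 143.7, 704.4 and 12.9 CPM in Trp53ΔIECAktE17K tumours, all of them above the highest Trp53ΔIEC tumour. As for H19, replicate 3 was highest and replicate 4 lowest in that group, and Trp53ΔIEC replicate 4 was the lowest of the 8. The means were 7.89 ± 3.23 and 227.7 ± 322.5 CPM, and the log2 fold change of 4.85 ± 1.18 was not called. It was called without Trp53ΔIECAktE17K replicate 4 (5.21) and was 3.14 without replicate 3. On all 8 tumours DESeq2 called Igf2 higher and limma-voom did not. Reads of Igf2 and of its antisense gene Igf2os, which share 98 exonic bases, cannot be told apart because the kit does not mark strand. Igf2os reached 12.7 CPM in replicate 3 and stayed at 1.69 CPM or less in the others.

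H19 and Igf2 did not move in fixed proportion. The ratio of H19 to Igf2 CPM was 2.85, 3.41, 1.79 and 0.653 in Trp53ΔIEC tumours and 11.8, 19.6, 7.47 and 2.09 in Trp53ΔIECAktE17K tumours. The ratio was highest in replicate 2 with AktE17K, not in replicate 3 where both genes peaked, and in replicate 4 it lay within the Trp53ΔIEC range. Igf2r, the scavenging receptor that takes up IGF2 and is itself expressed from the maternal copy, was at 93.4 to 158.1 CPM in Trp53ΔIEC and 98.2 to 182.4 CPM in Trp53ΔIECAktE17K tumours. Its log2 fold change was 0.21 ± 0.23. Grb10, an adaptor that dampens insulin and IGF receptor signalling, was at 38.5, 11.5, 9.72 and 28.0 CPM against 85.0, 41.5, 203.7 and 38.0 CPM. It was highest in the same replicate 3 as H19 and Igf2. The Grb10 groups overlap only by replicate 4 of Trp53ΔIECAktE17K, and its 2.07 ± 0.66 was not called. Plagl1, a zinc finger factor known to act on other imprinted genes, was at 32.6 to 53.2 CPM in Trp53ΔIEC and at 47.5, 22.7, 11.5 and 22.7 CPM in Trp53ΔIECAktE17K tumours (-0.62 ± 0.39, not called). Its lowest value was in replicate 3, where H19, Igf2 and Grb10 were highest.

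**Figure D2:**
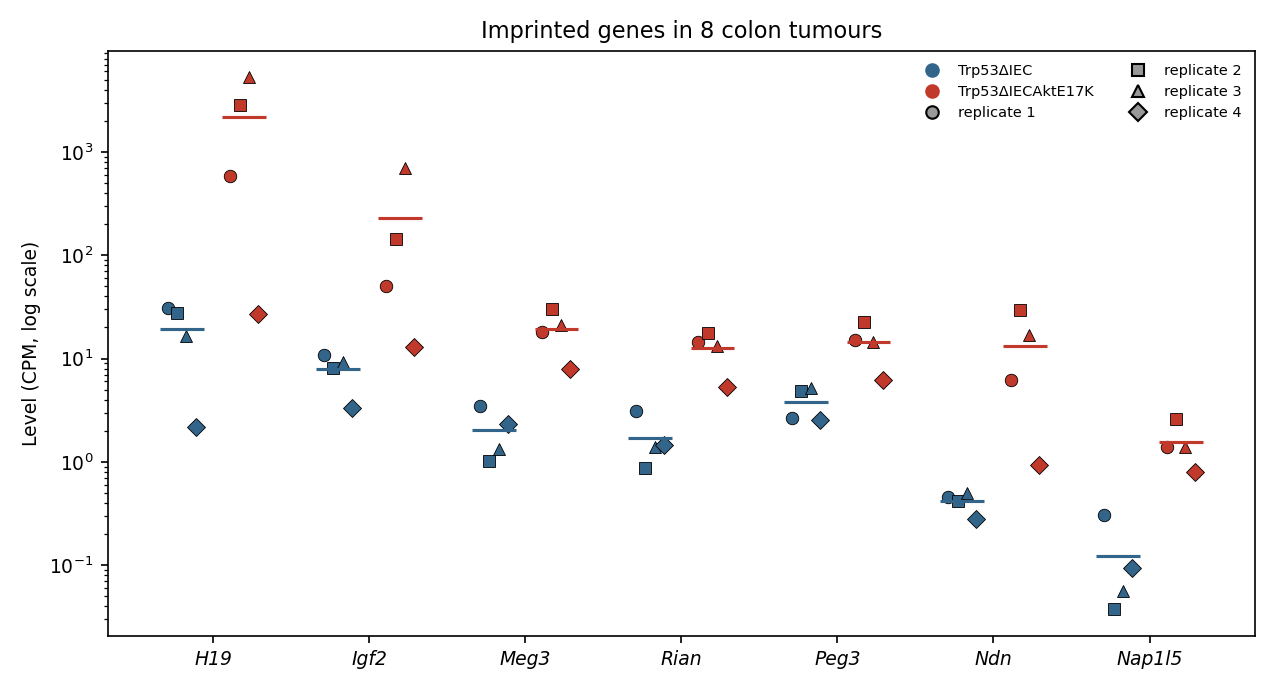
CPM of single imprinted genes in each tumour on a log axis, with the Trp53ΔIEC and Trp53ΔIECAktE17K tumours side by side and a bar at the group mean. H19 and Igf2 spread over 195.9-fold and 54.8-fold within the Trp53ΔIECAktE17K group, and Meg3, Rian and Peg3 over 3.77-fold, 3.27-fold and 3.71-fold.

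The Dlk1-Dio3 domain on chromosome 12 carries noncoding RNAs read from the maternal copy and protein-coding genes read from the paternal copy. Both long noncoding RNAs nearest its control region rose. Meg3 (ENSMUSG00000021268, 12:109541001-109571726, plus strand) was at 3.48, 1.02, 1.34 and 2.33 CPM in Trp53ΔIEC tumours. In Trp53ΔIECAktE17K tumours it was at 18, 30, 21.3 and 7.96 CPM, all above the Trp53ΔIEC range. The means were 2.04 ± 1.11 and 19.3 ± 9.12 CPM, a 9.43-fold rise (log2 3.24 ± 0.53). Rian (12:109603940-109661716), which carries C/D-box snoRNAs in its introns, was at 3.10, 0.865, 1.40 and 1.44 CPM against 14.4, 17.5, 13.1 and 5.36 CPM, a 7.37-fold rise (2.88 ± 0.51). Mirg, the host of most of the domain's miRNAs, was at 0.536, 0.188, 0.112 and 0.512 CPM against 0.931, 1.77, 1.47 and 0.652 CPM. Its groups did not overlap, and its 1.81 ± 0.54 was not called.

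In all 3 of these noncoding RNAs replicate 2 was the highest and replicate 4 the lowest of the Trp53ΔIECAktE17K tumours. The paternal genes of the domain were low and less even. Dlk1, a membrane protein related to the Notch ligands and a marker of progenitors, was at 0.651 to 3.65 CPM in Trp53ΔIEC and at 1.48, 2.67, 2.81 and 7.26 CPM in Trp53ΔIECAktE17K tumours (0.89 ± 0.63, not called). Here replicate 4 was the highest of all 8, in contrast to the noncoding RNAs. Rtl1, a protein derived from a retrotransposon that placental vessels need, had 0 counts over the Trp53ΔIEC tumours and 21 over the others. With a floor of 3 counts for the whole group this is at least 6.92-fold higher. Reads of RNA from the opposite strand, where 11 of the mature miRNAs lie, cannot be told apart from Rtl1 because the kit does not mark strand. Dio3, the enzyme that inactivates thyroid hormone, was at 0.268, 0, 0 and 0.186 CPM against 6.52, 4.73, 2.52 and 0.419 CPM, 11 and 338 counts in all. The groups did not overlap in either. Both were under edgeR's filter, and without that filter edgeR called neither. DESeq2, which was run without it, called Rtl1, Dio3 and Magel2 higher, besides its 11 calls among the 25 tested members.

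Peg3, a zinc finger protein read from the paternal copy (ENSMUSG00000002265, 7:6703892-6730431, minus strand), was at 2.64, 4.81, 5.20 and 2.56 CPM in Trp53ΔIEC tumours. It was at 15.0, 22.8, 14.3 and 6.15 CPM in Trp53ΔIECAktE17K tumours, with no overlap. The means were 3.80 ± 1.40 and 14.6 ± 6.81 CPM, a 3.83-fold rise (1.94 ± 0.44). Usp29, which starts next to Peg3 on the other strand, had 0 reads in all 8 tumours.

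Of the Prader-Willi domain on chromosome 7, the paternally expressed intronless genes were measured. Ndn, which encodes the growth suppressor necdin (ENSMUSG00000033585, 7:62346569-62350262, plus strand), was at 0.459, 0.414, 0.503 and 0.279 CPM in Trp53ΔIEC tumours and at 6.22, 29.3, 16.8 and 0.931 CPM in Trp53ΔIECAktE17K tumours. All 4 lay above the Trp53ΔIEC range, replicate 4 by the least. The rise was 31.9-fold (4.99 ± 0.97), from 0.414 ± 0.0968 to 13.3 ± 12.6 CPM. It rested on 38 counts over the Trp53ΔIEC tumours and 1280 over the others. Only the Trp53ΔIECAktE17K tumours brought Ndn past the filter on low counts. Magel2, a relative of necdin, had 0 counts over the Trp53ΔIEC tumours and 56 over the others, at least 18.4-fold higher against the same floor. Its levels of 0.381, 0.370, 1.55 and 0.0466 CPM were again lowest in replicate 4. Peg12, a Frat family gene of the Wnt pathway, was at 0.372 to 0.651 CPM against 0.593, 1.44, 2.39 and 0.652 CPM. The 1.46 ± 0.50 of Peg12 was not called.

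The Kcnq1 domain, which shares the distal part of chromosome 7 with H19, held members of higher level and smaller difference. Cdkn1c, the maternally expressed cyclin-dependent kinase inhibitor p57, was at 38.7, 103.8, 52.1 and 3.82 CPM against 75.3, 91.6, 73.4 and 47.3 CPM (0.53 ± 0.73). Trp53ΔIEC replicate 4, where H19 and Igf2 were also lowest, was the lowest of the 8. Phlda2, a small growth-restraining protein of the placenta, was at 9.38 to 14.6 CPM in one group and 8.93 to 14.0 CPM in the other (0.05 log2). Kcnq1, a potassium channel subunit of the epithelium, was at 145.5, 200.4, 144.5 and 52.6 CPM against 66.6, 60.9, 89.0 and 52.7 CPM. Of the 3 members with a difference below 0 (Kcnq1, Plagl1 and Slc38a4) it was the only one beyond 2-fold (-1.01 ± 0.37), and it was not called.

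**Figure D3:**
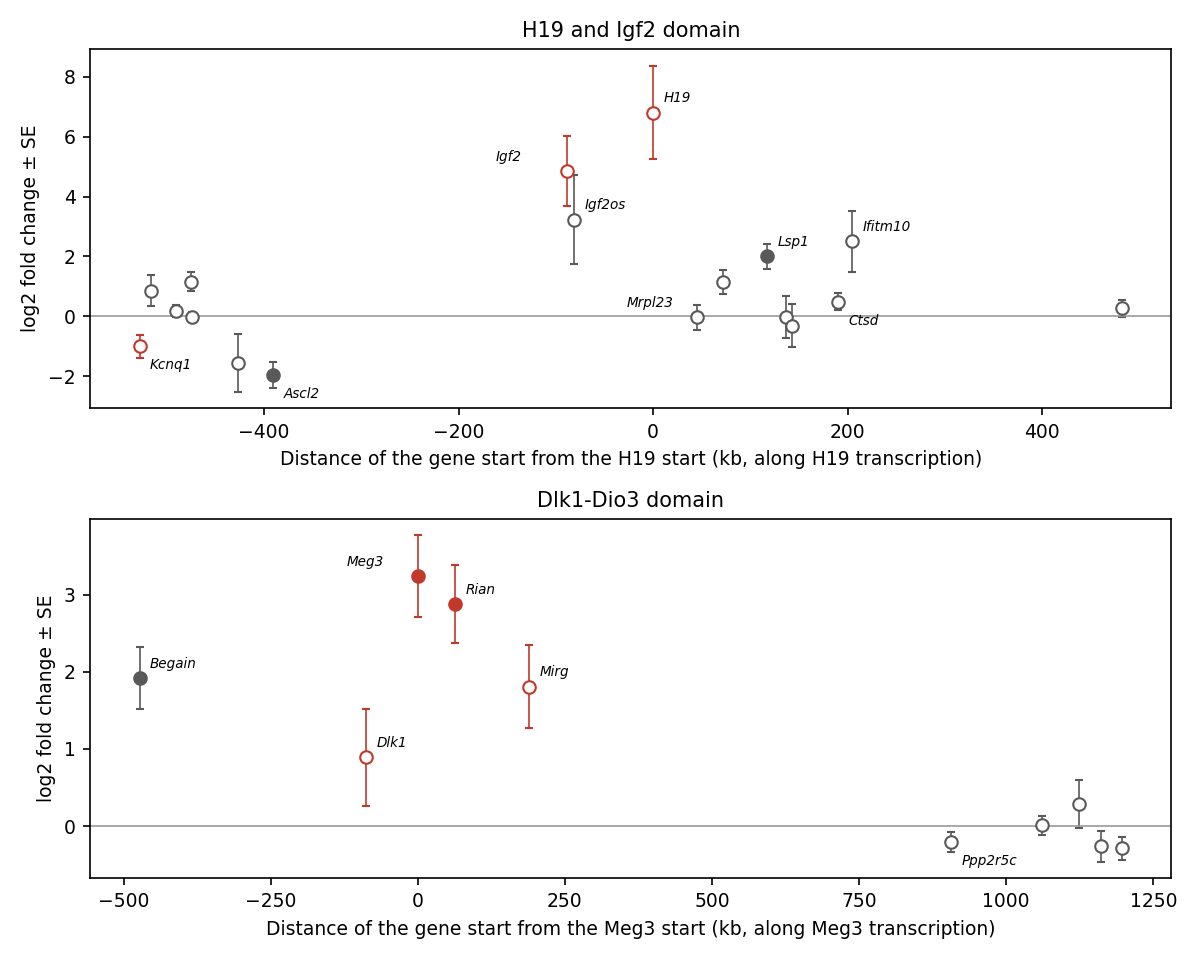
Log2 fold change ± SE of tested genes against the distance of their start from that of H19 (top) or Meg3 (bottom), with imprinted members in red, other genes in grey and called genes filled. H19 and Igf2 stand at 6.81 and 4.85. Past H19, Mrpl23 (45.5 kb) is at -0.04 and Lsp1 (117.3 kb, called) at 2.01. Of the 15 genes there that are no members, 9 lie above 0 and 6 below, from -1.96 to 3.23. Begain, 472.8 kb before Meg3, is called at 1.92. The genes from Ppp2r5c onward, 906.1 kb and more past Meg3, lie between -0.29 and 0.29.

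The remaining members are single genes or small clusters. Nap1l5, a nucleosome assembly protein relative that is an intronless paternal gene (ENSMUSG00000055430, 6:58905233-58907076, minus strand), was at 0.306, 0.0376, 0.0559 and 0.0931 CPM against 1.40, 2.59, 1.39 and 0.792 CPM. The groups did not overlap, and the rise was 11.7-fold (3.55 ± 0.65), at levels that stayed under 3 CPM. Nap1l5 counts were 8, 1, 1 and 2 in Trp53ΔIEC and 33, 63, 33 and 17 in Trp53ΔIECAktE17K tumours. Only the latter group brought it past the filter on low counts, as was also so for Ndn, Mirg, Peg10, Peg12 and Rasgrf1. Peg10, a retrotransposon-derived gene that the placenta needs, was at 0.301 to 1.45 CPM against 3.47, 17.8, 3.82 and 1.96 CPM (2.82 ± 0.80, no overlap, not called). Its neighbour Sgce, a sarcoglycan, was at 3.53 to 7.37 CPM against 11.3, 30.8, 6.64 and 8.66 CPM (1.26 ± 0.51, not called). Replicate 2 was the highest of the 8 for both genes.

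Mest, a paternally expressed hydrolase relative of mesoderm, was at 3.87, 0.677, 1.51 and 1.54 CPM against 7.75, 13, 5.42 and 2.51 CPM (1.91 ± 0.64, not called). Mest shares 912 exonic bases with Copg2 on the other strand, and reads there cannot be assigned by strand. Nnat, a small membrane protein of the developing brain, was at 0.612 to 2.12 CPM against 4.15, 26.7, 0.294 and 0.885 CPM. Its 2.51 ± 1.25 was not called, rested on replicate 2 (0.33 without it) and turned to -1.25 with the title letter as a term. Rasgrf1, an exchange factor for Ras, was at 1.65, 0.0752, 0.0559 and 0.0931 CPM against 1.44, 1.07, 0.630 and 0.605 CPM. Its 0.95 ± 0.98 became 3.54, and was called, without Trp53ΔIEC replicate 1. Slc38a4, an amino acid transporter, ranged from 13.6 to 124.2 CPM and from 4.75 to 119.2 CPM (-0.15 ± 0.96). Zdbf2 was at 0.494 CPM or less in every tumour.

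A last set held steady levels. Gnas, the stimulatory G protein subunit, was at 122.2 to 170.1 CPM against 130.9 to 172.7 CPM (0.05 ± 0.15). Impact, a regulator of the GCN2 kinase, was at 33.8 to 46.0 CPM against 41.0 to 48.6 CPM (0.09 ± 0.14). Inpp5f, a phosphoinositide phosphatase, was at 34 to 57.7 CPM against 42.8 to 48.1 CPM (0.05 ± 0.20). These 3 are among the members whose groups overlap and whose difference was smaller than the spread between tumours. The Gnas counts pool several transcripts that differ in imprinting, so a change in 1 of them could not be seen.

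Per kilobase of exon, the order of the members differed between the groups. In Trp53ΔIEC tumours the highest mean levels were those of Kcnq1 (33.2 CPM per kb), Cdkn1c (24.3), Gnas (12.6), Igf2r (12.6), Slc38a4 (11.6), Phlda2 (10.1), Impact (8.15) and H19 (7.85). In Trp53ΔIECAktE17K tumours H19 came first at 884.4 CPM per kb, followed by Igf2 (39.8), Cdkn1c (35.3) and Kcnq1 (16.4). The means of H19 and Igf2 in that group stand mainly for replicates 2 and 3. The called members were at 3.61 (Ndn), 1.09 (Peg3), 1.07 (Meg3), 0.836 (Nap1l5) and 0.690 (Rian) CPM per kb in that group.

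**Figure D4:**
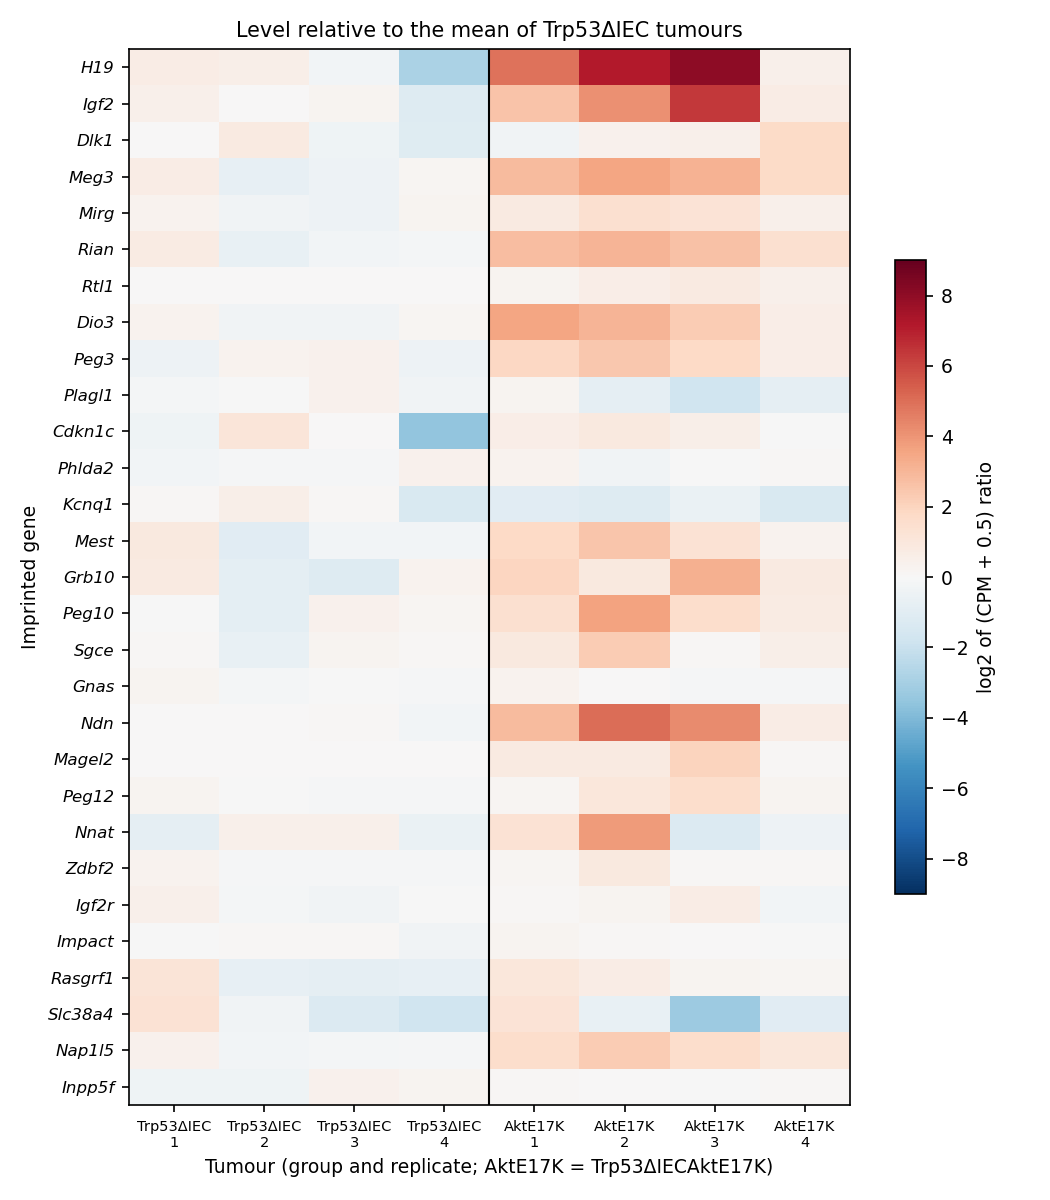
Log2 ratio of each tumour's level (CPM + 0.5) to the Trp53ΔIEC mean for the imprinted genes (rows) in the 8 tumours (columns), red above and blue below that mean. The red cells of Trp53ΔIECAktE17K replicates 2 and 3 are deepest for H19, Igf2 and Ndn, and replicate 4 is paler for most genes.

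The members did not follow 1 order of tumours. Among the 25 tested members, Trp53ΔIECAktE17K replicate 2 was the highest of all 8 tumours for 10 and replicate 3 for 5, among them H19, Igf2 and Grb10. Replicates 1 to 4 exceeded every Trp53ΔIEC tumour in 15, 14, 13 and 11 members, with median log2 ratios to the Trp53ΔIEC mean of 1.00, 1.02, 0.63 and 0.33. Replicate 4 was the lowest of its group for 17 of the 25. In the Trp53ΔIEC group, replicate 4 was the lowest of the 8 for 9 members and replicate 2 for 7.

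Both parental classes were among the members that rose. Of the 9 tested members known to be read from the maternal copy, 2 were called, Meg3 and Rian, both of the Dlk1-Dio3 domain. The median log2 fold change of the 9 was 1.81. Of the 14 tested members read from the paternal copy, 3 were called (Peg3, Ndn and Nap1l5), with a median of 1.68. Over all tested genes 3.44% were called higher. The difference between the classes was not tested, and the counts give no reading of which allele the RNA came from.

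Of the 5 called members none kept its call in each of the 8 fits that leave out 1 tumour. Meg3 was called in 4 of them, Rian and Nap1l5 in 3, Ndn in 2 and Peg3 in 1. The number of members called was 4, 0, 0 and 0 without Trp53ΔIEC replicates 1 to 4, and 0, 1, 4 and 8 without Trp53ΔIECAktE17K replicates 1 to 4. Calls over all genes shifted too, from 569 higher with all 8 tumours. They were 217, 64, 72 and 67 without Trp53ΔIEC replicates 1 to 4, and 155, 252, 567 and 702 without Trp53ΔIECAktE17K replicates 1 to 4. The directions held in these fits, with log2 fold changes of 2.92 to 3.62 for Meg3, 2.65 to 3.34 for Rian, 1.62 to 2.17 for Peg3, 4.23 to 5.36 for Ndn and 3.16 to 4.53 for Nap1l5. The sample titles carry a letter of unstated meaning, which is B except in Trp53ΔIECAktE17K replicates 1 and 2, where it is A. With the letter as a term, which sets replicates 3 and 4 against the Trp53ΔIEC tumours, 0 members were called. The log2 fold changes were then 7.10 for H19, 5.50 for Igf2, 2.84 for Meg3, 2.43 for Rian, 1.43 for Peg3, 4.41 for Ndn and 3.05 for Nap1l5.

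Of 57 further imprinted genes 43 were tested, and 2 rose and 1 fell (6.98% of those tested, against 4.20% of all genes). Their differences were above 0 in 15 and below 0 in 28, with a median of -0.14. Begain, a postsynaptic density protein that lies 472.8 kb before Meg3, was at 0.383, 0.338, 0.279 and 0.512 CPM against 2.46, 1.15, 0.924 and 1.26 CPM (1.92 ± 0.40, edgeR adjusted p = 0.0395). Dcn, the matrix proteoglycan decorin and a fibroblast marker, was at 270.1, 277.3, 271.2 and 314.2 CPM against 592.3, 573.1, 355.0 and 599.2 CPM (0.90 ± 0.18, edgeR adjusted p = 0.0364). Ascl2, a transcription factor of intestinal stem cells, was at 49.7, 49.8, 33.7 and 37.0 CPM against 13, 14.7, 3.15 and 12.9 CPM (-1.96 ± 0.43, edgeR adjusted p = 0.0463). Begain, like Sfmbt2 below, passed the filter on low counts only through the Trp53ΔIECAktE17K tumours. Dcn and Ascl2 are imprinted mainly in the placenta. Removing single tumours left 0 to 3 of the 43 called higher and 0 or 1 lower, with 0 in either direction without Trp53ΔIEC replicate 2, 3 or 4 or Trp53ΔIECAktE17K replicate 1 or 2. Without Trp53ΔIEC replicate 1 it was 1 higher and 0 lower. Sfmbt2, a Polycomb protein named here after its values were seen, was at 0.191 to 0.512 CPM against 1.78, 6.83, 89.2 and 0.699 CPM. Like H19 and Igf2 it was highest in replicate 3 and lowest in replicate 4, and it was not called (edgeR adjusted p = 0.0801).

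The 5 called members lie in 4 domains, and genes near them that are on neither list of imprinted genes were examined. This leaves out Begain, which lies in the same window and rose, and no such gene near Ndn passed the filter. Of 19 tested genes within 500 kb of the members of the other 3 domains, 0 were called by edgeR (4 at an unadjusted p under 0.05, 3 of them higher), 1 lower by DESeq2 and 0 by limma-voom. Over all 16539 tested genes edgeR's test called 4.20%, and 3446 had an unadjusted p under 0.05, 2112 of them higher. At such a share, 0 calls among 19 genes is no sign that the neighbours were unchanged. The median log2 fold change of the 19 neighbours was 0.26. The lowest p-values were those of Fam13a beside Nap1l5 (2.61, edgeR adjusted p = 0.0764) and the channel gene Clcn4 beside Peg3 (-0.40, edgeR adjusted p = 0.0965). Around H19 and Igf2, a set drawn after the values were seen, 2 of 15 tested genes that are no members were called, Ascl2 and the leukocyte gene Lsp1, which lies 117.3 kb past H19 (2.01 ± 0.42, edgeR adjusted p = 0.0402). Their differences ran from -1.96 to 3.23.

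Among 21 tested genes that set or keep imprints (DNA methyltransferases, the TRIM28 and ZFP57 complex, CTCF, Polycomb and TET proteins), 0 rose and 1 fell (4.76%, against 4.20% of all genes), with a median of 0.02. At an unadjusted p under 0.05 edgeR had 0 higher and 3 lower, and DESeq2 called 0 higher and 3 lower. Ezh2, the Polycomb methyltransferase, was at 161.3, 128.4, 134.6 and 155.9 CPM against 88.6, 78.4, 113.4 and 92.9 CPM (-0.64 ± 0.15, edgeR adjusted p = 0.0490). Of 19 tested genes of the IGF axis in which Igf2 acts, 4 rose (21.1%, against 4.20% of all genes), namely Igfbp5 (2.28), Igf1 (1.41), Igfbp2 (8.41) and Igfbp3 (1.71), with edgeR adjusted p-values of 0.00999, 0.0252, 0.0323 and 0.0389. DESeq2 called 6 higher and limma-voom 3, and both called 1 lower, the insulin receptor substrate gene Irs2 (named after its values were seen), which edgeR did not call. Igfbp2 at 175.4, 58.8, 1941 and 22.8 CPM was, like H19 and Igf2, highest in replicate 3 and lowest in replicate 4 of the Trp53ΔIECAktE17K tumours.

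Markers of several other cell types were called, where over all tested genes 3.44% were called higher and 0.756% lower. Called higher were 6 of 12 tested fibroblast markers, 8 of 10 smooth muscle, 5 of 8 pericyte, 1 of 8 endothelial, 7 of 9 cardiac muscle, 5 of 9 enteric neuron and glia, 3 of 9 enteroendocrine and 4 of 7 squamous markers. Limma-voom called 0 of the squamous markers, whose sums overlapped between the groups (32.3 to 203.1 against 183.9 to 13625 CPM) and were highest in Trp53ΔIECAktE17K replicate 1, with at most 2161 CPM in the other 3. Also called higher were 1 of 4 skeletal muscle, 1 of 5 fetal endoderm, 1 of 3 adipocyte and 1 of 2 mesothelial markers. The sums of these lists and of the endothelial list overlapped between the groups. At an unadjusted p under 0.05 edgeR's test had 10 fibroblast markers higher and 1 lower, Pdgfra (-0.84, not called). Of the colon epithelium markers 0 of 10 were called by edgeR (3 lower at an unadjusted p under 0.05, 2 lower by DESeq2 and 0 by limma-voom), and 2 of 7 hepatocyte markers fell. Summed smooth muscle markers ranged from 314.5 to 505.5 CPM in Trp53ΔIEC and from 1143 to 1858 CPM in Trp53ΔIECAktE17K tumours, without a marker at 0. Fibroblast sums ranged from 2216 to 3429 and from 4569 to 7129 CPM, cardiac sums from 36.9 to 115.1 and from 160.4 to 228.9 CPM, and neuron and glia sums from 10.9 to 30.8 and from 62.3 to 119.8 CPM. Of the cardiac sum in Trp53ΔIEC tumours, most came from Tnnt2 and Myl7, which were not called. Except for Tnni3, called cardiac markers were near 0 there and nearly even in Trp53ΔIECAktE17K tumours, as Myh6 (0 to 0.223 against 47.6 to 57 CPM). Only the latter tumours brought these markers past the filter on low counts. The hepatocyte marker Hpx fell, at 11.7 to 12.5 against 1.12 to 2.84 CPM. The source of these even levels was not tested. The part of the listed cell types in the values of the imprinted genes was not tested.

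Within the Trp53ΔIECAktE17K group the sums differed in how they ran beside H19 and Igf2. Neuron and glia sums were 119.8, 99.9, 82.0 and 62.3 CPM in replicates 1 to 4, so they too were lowest in replicate 4, but not highest in replicate 3. Replicate 4, with H19 at 26.9 CPM, had a smooth muscle sum of 1473 CPM and a cardiac sum of 228.9 CPM. Replicate 3, with H19 at 5265 CPM, had 1361 and 160.4 CPM and the lowest fibroblast sum of the group (4569 CPM, against 4749 CPM in replicate 4). Single fibroblast markers ran both ways, with Fbln1 at 312.7 CPM in replicate 3 and 97.7 CPM in replicate 4, and Dcn at 355 and 599.2 CPM. Colon epithelium sums were 5028, 6051, 4347 and 9717 CPM in replicates 1 to 4, lowest in replicate 3 and highest in replicate 4. A link of these sums to H19 was not tested. Replicate 3 did stand apart in the hepatocyte list, with a sum of 136.8 CPM against 16.9 to 23.3 CPM in the other 3. Fgb, a fibrinogen chain, supplied 126.3 CPM of that sum, whereas Alb was at 0.672 CPM. Igf2bp1, an RNA-binding protein of fetal tissue known to bind Igf2 transcripts, was at 44.1 CPM in replicate 3, against 2.42 to 3.74 CPM in replicates 1, 2 and 4. Afp was at 3.53 CPM in replicate 3, below its level in the other 3 (6.43 to 26.3 CPM). The fetal endoderm sums overlapped, at 32.6 to 62.9 and 42.1 to 82.1 CPM.

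**Figure D5:**
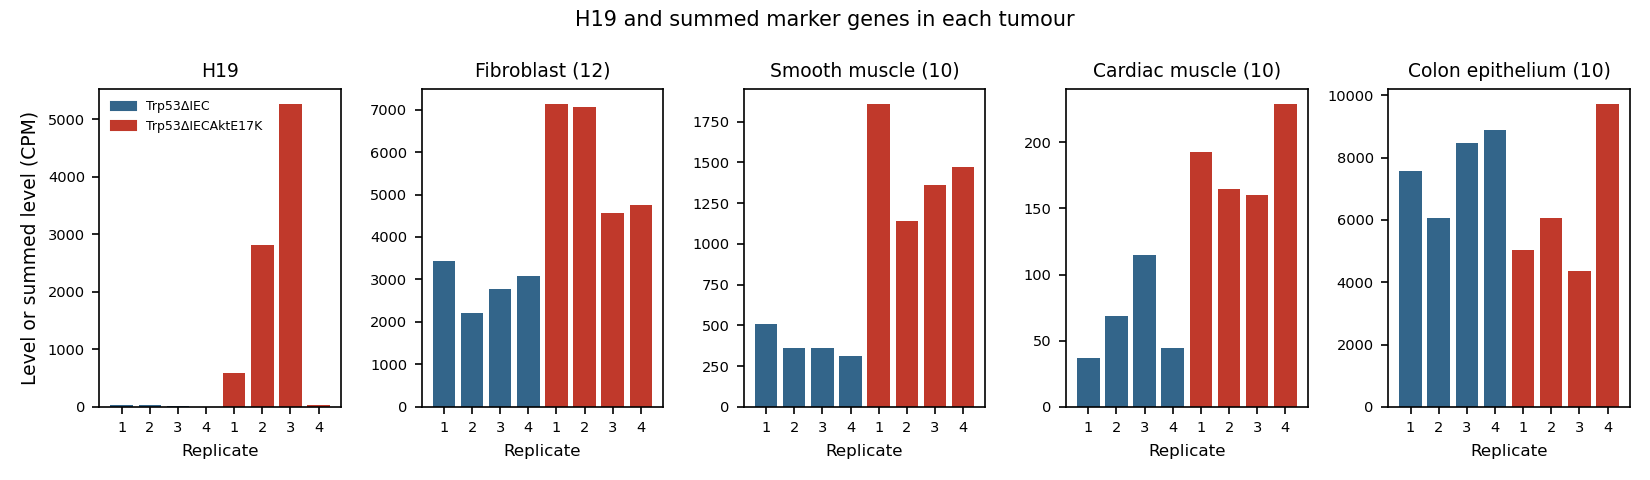
Bars give the H19 level and the summed level of 4 marker lists (CPM, number of markers in brackets) in each tumour, Trp53ΔIEC in blue and Trp53ΔIECAktE17K in red, on linear axes from 0. Trp53ΔIECAktE17K replicate 4 is as high as its group in the smooth muscle and cardiac sums (1473 and 228.9 CPM), while its H19 bar (26.9 CPM) is as low as those of the Trp53ΔIEC tumours. The colon epithelium sum of that group is highest in replicate 4 (9717 CPM) and lowest in replicate 3 (4347 CPM), where H19 is highest. A link of these sums to H19 was not tested.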

How the data were processed

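RNA of 8 whole colon tumours was sequenced, 4 per genotype, with RNA from the RNeasy Mini Kit and the TruSeq mRNA v2 kit per the labels' protocols. The authors deposited raw counts per Ensembl gene for each tumour. CASAVA 1.8.2, STAR 2.3.0, SAMtools 1.2, HTSeq 0.6, DESeq2 1.8.1 and the build mm10 are named, without roles, per the submitters' processing notes. The sources used here state neither the annotation release nor the strand setting. Closing lines of reads assigned to no gene were set aside (9.74% to 11.7% of uniquely aligned reads in no feature, 1.93% to 2.32% ambiguous). Symbols, positions and exon lengths came from GENCODE M21 (GRCm38), which held 36602 of the 38355 identifiers.

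Counts were tested with edgeR 4.0.16 in R 4.3.3 (filterByExpr, TMM, robust quasi-likelihood F-test, group as the only term) with Benjamini-Hochberg adjustment over the 16539 genes tested. Each SE is the log2 fold change divided by the root of its F. DESeq2 1.42.0, limma-voom (limma 3.58.1), other scalings, no filter, the title letter, a replicate block and removal of each tumour were the alternatives. The procedure was tested on simulated counts. Folds against 0 counts use a floor of 3 counts over the group, and such limits cover counting error only. The members and lists were chosen with earlier results of these data known. Named were all members, the called genes of the other lists (or the 2 with the lowest p) and up to 3 abundant markers per cell type list. Mrpl23, Igf2os, Lsp1, Sfmbt2, Igf2bp1 and the genes compared for the tumour with the highest H19 were added after their values were seen. Sequences were read from RefSeq tables of GRCm38.p6.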

Additional observations from a re-analysis of the deposited data

Results flagged for a closer look

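Within groups of 4 tumours, 1 tumour stood far from the others in 5 of the 52 member and group combinations examined. The rule's chance rate of about 1 in 20 holds only for independent, normally distributed values. CPM at few reads are skewed, and genes of the same tumour are not independent, so no comparison with chance is made. Trp53ΔIECAktE17K replicate 2 stood apart for Peg10, at 17.8 CPM against 1.96 to 3.82 CPM in the other 3, for Nnat, at 26.7 CPM against 0.294 to 4.15 CPM, and for Zdbf2, at 0.494 CPM against 0.084 to 0.127 CPM. Trp53ΔIEC replicate 1 stood apart for Rasgrf1, at 1.65 CPM against 0.0559 to 0.0931 CPM, and for Peg12, at 0.651 CPM against 0.372 to 0.414 CPM. The gap to the nearest tumour was 0.851 to 0.977 of the group's range, above Dixon's critical value. H19 and Igf2 were not among them.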

How the results depend on the processing

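Of the 76 named genes tabulated under the alternatives, none that was called reversed its direction, and 0 members were called lower in any. DESeq2 called 1721 genes higher and 768 lower, and 14 members higher (3 of them under edgeR's filter). It called 3 of the other imprinted genes higher and 3 lower, and 1 domain neighbour lower. Limma-voom called 3 members higher. Without the filter on low counts 1 of the other imprinted genes was called higher and 0 lower. With the title letter as a term 90 genes were higher and 6 lower, and 0 members and 0 of the other imprinted genes were called. With a replicate block 48 genes were higher and 2 lower, and 0 members and 0 of the other imprinted genes were called. Expression gave no sign that the replicate numbers pair the tumours: deviations of same-numbered tumours correlated at -0.0393, 0.00829, -0.243 and 0.00928, and none of the 4 correlated best with its own number. With 4 tumours per group this check cannot exclude a pairing. Leaving out single tumours gave 64 to 702 genes higher and 10 to 247 lower, 0 to 8 members higher, and 0 to 3 of the other imprinted genes higher and 0 to 1 lower. Each removal also leaves fewer residual degrees of freedom. The causes of these shifts were not tested otherwise. Depth limits Rtl1, Magel2, Zdbf2 and Usp29, whose tumours hold few reads or none. With 4 tumours per group and a 195.9-fold spread of H19 within 1 of them, the SE of the H19 log2 fold change was 1.57.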
